A study of Caenorhabditis elegans with 36 samples.

Results

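Embryos of the nematode Caenorhabditis elegans labelled xnp-1 were compared with embryos of the wild-type strain N2 by poly(A) RNA-seq. The comparison rests on 6 of the 24 poly(A) libraries of the study, 3 from xnp-1 embryos and 3 from N2 embryos. Its members are all genes that passed a filter on low counts, which were 17687 of the 46926 genes in the table. The study also profiled first-stage (L1) and last-stage (L4) larvae of these genotypes, and those libraries are used here to set beside the embryo values, with the L1 libraries also sharing the fit's estimate of the spread. In both groups, adults were grown on NGM plates with OP50 bacteria at 20 °C and were dissolved with hypochlorite to release the embryos, and the labels give no single embryonic age. The labels give no transgene, no Cre and no further treatment for either group. The xnp-1 label gives the genotype as xnp1 and names no allele, while the study's design text speaks of a knockdown at this stage.

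xnp-1 is the worm orthologue of ATRX, a chromatin remodeller of the SNF2 family. In mammals ATRX works with the chaperone DAXX to place the histone variant H3.3 in heterochromatin, at telomeres and at other repeats, and mutations in the human gene cause an X-linked syndrome of intellectual disability with alpha-thalassaemia. In the worm, genetic screens have linked xnp-1 with lin-35, the retinoblastoma homologue, in larval development. Small RNA pathways, in which Argonaute proteins carry piRNAs and endogenous siRNAs, silence germline genes and repeats in the same animal.

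The libraries held 38764823, 41520291 and 40828436 fragments in xnp-1 embryos and 41418691, 33405854 and 29896459 in N2 embryos. The library that stood apart was xnp-1 replicate 1. A principal component analysis of the 6 embryo libraries put 42.1% of the variance on its first axis and placed the xnp-1 libraries at -62.2, -15 and -13.6 and the N2 libraries at 43.1, 20.8 and 27. A list of early zygotic genes, which are transcribed in young embryos, summed to 1762, 895.7 and 912.9 CPM (counts scaled to a common library size by TMM) in xnp-1 embryos, against 836.9, 915.2 and 1028 CPM in N2 embryos. xnp-1 replicate 1 was the highest of the 6, while replicates 2 and 3 lay within the N2 range. A list of 11 genes of the embryonic apical matrix, which are used later, summed to 5221, 5947 and 5782 CPM in xnp-1 embryos and 4748, 5654 and 5517 CPM in N2 embryos. The difference of the mean log2 levels of these lists, late minus early, was 4.25, 5.39 and 5.27 in xnp-1 embryos and 5.04, 5.21 and 5.03 in N2 embryos, so xnp-1 replicate 1 was lowest, and the counts below are also given without it. Regulators that define embryonic lineages were present in every library, among them pha-4 of the pharynx (176 to 213 CPM in xnp-1 and 191 to 196 CPM in N2 embryos), elt-1 of the epidermis (89.3 to 142 CPM in xnp-1 and 89.8 to 106.6 CPM in N2 embryos) and the muscle gene hlh-1 (42.9 to 55 CPM in xnp-1 and 46.1 to 51.6 CPM in N2 embryos). RNA of the mothers' 5 tested yolk genes (vitellogenin) summed to 3.90 to 7.26 CPM in xnp-1 embryos and 6.10 to 7.86 CPM in N2 embryos. Of 53 sperm genes, 52 did not pass the count filter, and 18 had no count in any embryo library. The 1 tested sperm gene had 0.0764 to 0.282 CPM in xnp-1 embryos and 0.0973 to 0.190 CPM in N2 embryos. These levels were low in both groups, but the sum over all sperm genes was not taken.

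**Figure D1:**
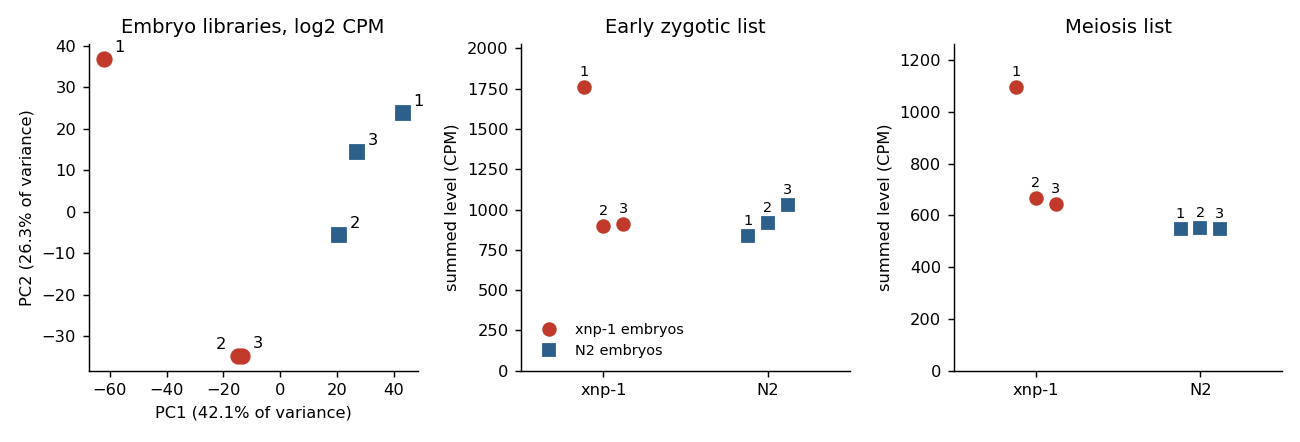
Left, the 6 embryo libraries on the first 2 principal components of log2 CPM, with replicate numbers. Middle and right, the summed CPM of the early zygotic and meiosis lists in each library, with xnp-1 embryos as red circles and N2 embryos as blue squares. xnp-1 replicate 1 stands apart in all 3 panels, at 1762 CPM for early zygotic genes and 1098 CPM for meiosis genes.

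The transcript of xnp-1 itself checks the labels of the embryo libraries. xnp-1 (WBGene00006961, chromosome I, 4665933 to 4671738, minus strand, WBcel235) stood at 123, 134 and 138 CPM in xnp-1 embryos, against 384, 433 and 386 CPM in N2 embryos. The groups did not overlap, and the transcript was reduced but present in every xnp-1 library (log2 change -1.61, SE 0.137, edgeR adjusted p = 5.98e-05). The next gene on the same strand, B0041.11 (WBGene00206362, 4660828 to 4662445), rose, with 40.8, 48.6 and 48.9 CPM in xnp-1 embryos, against 19.3, 23.5 and 18.9 CPM in N2 embryos (log2 change 1.16, SE 0.151, edgeR adjusted p = 0.00234). No other tested gene within 20 kb of xnp-1 was called, and unc-57 on its far side had a log2 change of -0.24 (adjusted p = 0.58, edgeR). On chromosome II, gsox-1 (WBGene00009365), whose label marks other groups of the study, had 382, 279 and 275 CPM in xnp-1 embryos, against 202, 240.4 and 210.1 CPM in N2 embryos. All 3 xnp-1 libraries lay above all 3 N2 libraries, but the difference did not pass the test (log2 change 0.52, SE 0.182, edgeR adjusted p = 0.242).

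Between xnp-1 and N2 embryos, 76 genes rose and 121 fell at an edgeR adjusted p under 0.05. These are 0.43% and 0.684% of the 17687 genes tested, or 1.11% together. The counts in gene lists below stand against these shares, which come to less than 1 gene in most of the lists. In 4283 genes (24.2%) the 3 xnp-1 and the 3 N2 libraries did not overlap, which was so for all 197 called genes. The genes that rose had a median log2 change of 1.55, and 66 of them rose more than 2-fold. The 74 of them with more than 3 counts in both groups ran from 0.79 to 5.02, and 2 had no count in N2 embryos. Their median level was 14 CPM in xnp-1 embryos and 4.46 CPM in N2 embryos. The genes that fell had a median of -1.61, with median levels of 1.89 CPM in xnp-1 embryos and 5.71 CPM in N2 embryos. The 117 of them with more than 3 counts in both groups ran from -3.67 to -0.89, while 2 had no count and 2 had 1 or 2 counts over the xnp-1 libraries. Both medians were the same with the groups at 0 set to 3 counts. The median over all genes tested was 0.03. Counting used the strand, but lin-13, zhp-2, crml-1, pcp-4 and C14B4.2, named below, overlap another gene on their own strand, so their counts are less certain. In whole embryos, fewer cells of a type and less RNA per cell cannot be told apart.

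The counts rest on few libraries. Without xnp-1 replicate 1 the count was 87 (50 higher and 37 lower), of which 84 were among the 197. It was 78 and 83 without xnp-1 replicates 2 and 3 and 90 without N2 replicate 3. Without N2 replicate 1, 53 were called, and N2 replicate 1 was the highest N2 library for 90 of the 121 genes that fell (74.4%, against 37.8% of all genes tested). With the early and late marker score as a covariate, 183 genes were called (79 of them higher), of which 166 were among the 197. DESeq2 called 591 and a fit of only the 6 embryo libraries 580. Fixed rules of size, level and list membership singled out 73 called genes in this report. Of these, 29 kept their call under all 14 alternatives, 18 of 30 that rose and 11 of 43 that fell.

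**Figure D2:**
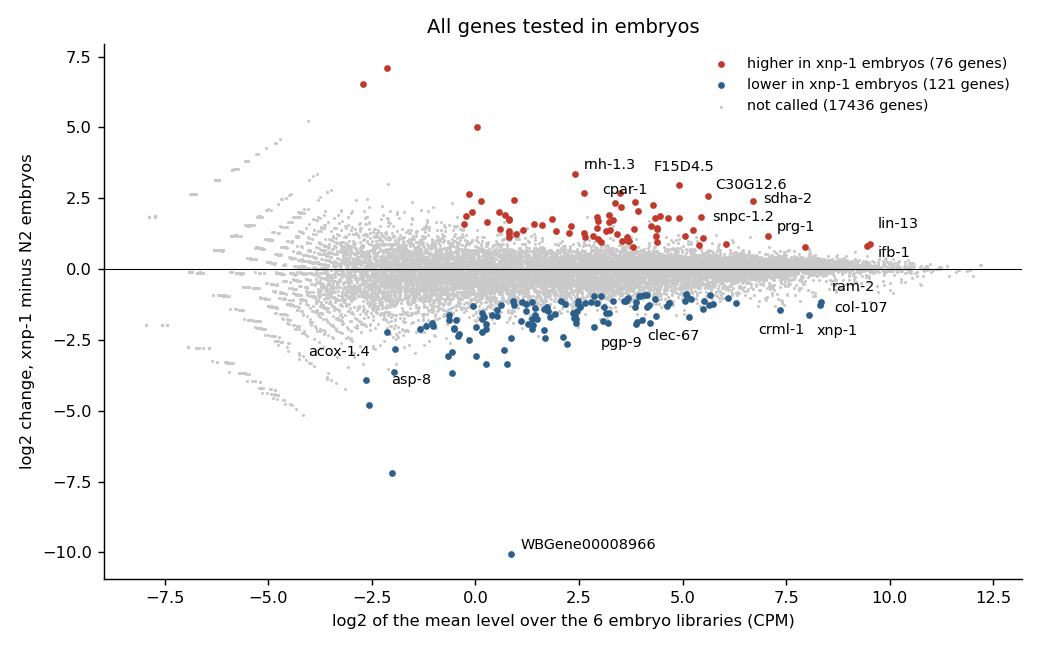
Each point is a gene, with the log2 of its mean level over the 6 embryo libraries (CPM) on the horizontal axis and its log2 change, xnp-1 minus N2 embryos, on the vertical axis. The 76 genes that rose are red and the 121 that fell are blue; 54 tested genes with no count in embryos are not drawn, and the points of genes with no count in 1 group stand at fitted values, not at measured sizes.

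sdha-2 had the highest CPM of the genes that rose more than 4-fold. It encodes a paralogue of the flavoprotein subunit of succinate dehydrogenase, and it had 185, 167 and 169 CPM in xnp-1 embryos, against 33, 32.4 and 33.98 CPM in N2 embryos (log2 change 2.39, SE 0.188, edgeR adjusted p = 4.01e-05). Its partner sdha-1, which encodes the same subunit, had 222, 243 and 231 CPM in xnp-1 embryos, against 227, 223 and 225 CPM in N2 embryos, and its log2 change was 0.04 (adjusted p = 0.909, edgeR). The xnp-1 and N2 libraries overlapped for sdha-1 and were far apart for sdha-2. In the list of 20 succinate dehydrogenase and citric acid cycle genes, sdha-2 was the only one called, and the median of the list was 0.01.

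Genes with no known role to name were among the clearest changes. F15D4.5 (chromosome II) had 54.2, 54.5 and 52.5 CPM in xnp-1 embryos, against 6.37, 7.204 and 7.16 CPM in N2 embryos (log2 change 2.96, SE 0.168, edgeR adjusted p = 2.15e-06), and C30G12.6 (chromosome II) had 88.01, 82.9 and 80.1 CPM in xnp-1 embryos, against 13.6, 15.6 and 13.3 CPM in N2 embryos (log2 change 2.56, SE 0.148, edgeR adjusted p = 2.15e-06). Within each group the libraries of both genes lay close together, and the groups were well apart. F22D6.9 (log2 change 2.19, SE 0.175), C48B4.10 (log2 change 2.69, SE 0.292) and F40D4.13 (log2 change 2.46, SE 0.339) also rose, as did 4 genes that the name tables used here list by identifier alone, from 2.03 for WBGene00219303 to 2.68 for WBGene00305980. The calls of these 9 genes were kept under all 14 alternatives. Of the 76 genes that rose, 58 matched a protein-coding entry of RefSeq by name and 14 matched none. These counts were 117 and 4 of the 121 that fell, and 16236 and 885 of the 17687 tested. The match needs a symbol, which 62 of the 76 and 117 of the 121 had. C06A1.12 (log2 change 1.89, SE 0.308) and Y53F4B.10 (log2 change 2.02, SE 0.419) rose as well. C06A1.12 lost its call under 3 alternatives (adjusted p up to 0.0841, edgeR), and Y53F4B.10 lost its call without xnp-1 replicate 1 (adjusted p = 0.159, edgeR) and under 6 other alternatives. R06F6.12, named for its level, averaged 85.7 CPM in xnp-1 and 46.3 CPM in N2 embryos (log2 change 0.89, SE 0.164). Its call was lost under 3 alternatives, among them without xnp-1 replicate 1 (adjusted p = 0.0507, edgeR).

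Genes of the RNA-DNA hybrid and small RNA pathways were among those that rose. rnh-1.3, a member of the RNase H family that degrades RNA paired with DNA, had 15.6, 6.11 and 7.16 CPM in xnp-1 embryos, against 0.802, 1.201 and 0.834 CPM in N2 embryos (log2 change 3.35, SE 0.425, edgeR adjusted p = 0.002). xnp-1 replicate 1 was far above the other xnp-1 libraries, and all 3 were above every N2 library. Without that library the log2 change was 2.79 (adjusted p = 0.00696, edgeR). rnh-1.3 was the only one of 4 tested RNase H genes to be called.

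Of 62 tested genes of the Argonaute and small RNA list, 6 rose and none fell, against 0.43% and 0.684% of all genes, with a list median of 0.25 against 0.03 over all genes tested. prg-1, the Piwi Argonaute that binds piRNAs, had 196, 176 and 179 CPM in xnp-1 embryos, against 78.2, 84.8 and 84.4 CPM in N2 embryos (log2 change 1.16, SE 0.162, edgeR adjusted p = 0.00368). ppw-2, an Argonaute of the worm-specific WAGO class, had 51.98, 56.4 and 56.4 CPM in xnp-1 embryos, against 20.4, 21.2 and 22.4 CPM in N2 embryos (log2 change 1.36, SE 0.163, edgeR adjusted p = 0.00118). Both were even within each group and did not overlap between groups. wago-4, an Argonaute needed for inherited RNAi, had 36.6, 28.2 and 26.8 CPM in xnp-1 embryos, against 11.5, 12.7 and 10.3 CPM in N2 embryos (log2 change 1.41, SE 0.207, adjusted p = 0.00516, edgeR), and the nuclear RNAi gene nrde-2 had 305, 319 and 319 CPM in xnp-1 embryos, against 178, 186 and 178 CPM in N2 embryos (log2 change 0.8, SE 0.119, adjusted p = 0.0056, edgeR). snpc-1.2, a paralogue of a subunit of the complex that starts transcription of small nuclear RNAs, had 82.7, 60.04 and 61.1 CPM in xnp-1 embryos, against 19.2, 19.9 and 18.4 CPM in N2 embryos (log2 change 1.83, SE 0.206, adjusted p = 0.000834, edgeR). The piRNA factor gene tofu-4, the sixth member called, had 27.5, 16.4 and 17.7 CPM in xnp-1 embryos, against 7.73, 7.804 and 7.85 CPM in N2 embryos (log2 change 1.4, SE 0.235, adjusted p = 0.0117, edgeR). In wago-4, snpc-1.2 and tofu-4 xnp-1 replicate 1 was the highest library, and all xnp-1 libraries were above all N2 libraries. All 6 stayed called without that library, where the list median was 0.01, and the count was again 6 with the marker score as a covariate, where the median was 0.14. The calls of wago-4 and nrde-2 were lost without N2 replicate 1 (adjusted p = 0.0518 and 0.0556, edgeR).

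Other germline lists had medians above 0 with few members called, but without xnp-1 replicate 1 only the meiosis median stayed above 0. Of 36 meiosis genes, 1 rose and none fell, with a median of 0.49 and 35 of 36 log2 changes above 0. Their summed level was 1098, 666.6 and 643.6 CPM in xnp-1 embryos, against 547.7, 551.7 and 547.6 CPM in N2 embryos. The sums did not overlap, xnp-1 replicate 1 was far above the rest, and without it the median was 0.19. The member called was zhp-2, which encodes a RING-finger protein of meiotic chromosome synapsis and crossover, with 17.5, 15.1 and 13.9 CPM in xnp-1 embryos, against 4.74, 3.98 and 5.28 CPM in N2 embryos (log2 change 1.73, SE 0.2402, edgeR adjusted p = 0.00359). rec-8, the meiotic cohesin, had 44.8, 38.2 and 34.5 CPM in xnp-1 embryos, against 19.7, 22.3 and 19.6 CPM in N2 embryos and did not pass the test (log2 change 0.93, SE 0.216, edgeR adjusted p = 0.0632).

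Of 21 maternal RNA-binding regulators, 1 rose, the PUF-family gene puf-8, with 32.8, 24.6 and 25.02 CPM in xnp-1 embryos, against 13.6, 16.9 and 11.9 CPM in N2 embryos (log2 change 0.96, SE 0.192, edgeR adjusted p = 0.0317). Its call was lost without any 1 of 5 libraries, xnp-1 replicates 1, 2 and 3 and N2 replicates 1 and 3. The list summed to 2727, 1349 and 1323 CPM in xnp-1 embryos, against 1429, 1424 and 1256 CPM in N2 embryos, so xnp-1 replicates 2 and 3 lay within the N2 range. None of 18 germ granule genes was called. The medians were 0.34 for the maternal regulators and 0.25 for germ granules. Without xnp-1 replicate 1 they were -0.09 and -0.02, against -0.02 over all genes in that fit. With the marker score as a covariate both were 0.14, against 0.01 over all genes.

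Few chromatin genes were called. Of 21 centromere and kinetochore genes, only cpar-1 was called, the paralogue of the centromeric histone H3 gene hcp-3. It had 16.5, 14.4 and 13.5 CPM in xnp-1 embryos, against 4.69, 3.44 and 3.75 CPM in N2 embryos (log2 change 1.90, SE 0.305, edgeR adjusted p = 0.00903), with the groups apart in all libraries; without xnp-1 replicate 1 its log2 change was 1.79 (adjusted p = 0.0501, edgeR). hcp-3 itself had 136, 77.6 and 76.5 CPM in xnp-1 embryos, against 82.05, 81.1 and 86.97 CPM in N2 embryos and was not called (log2 change 0.22, SE 0.342, edgeR adjusted p = 0.845). The whole list summed to 4048, 2221 and 2198 CPM in xnp-1 embryos, against 2237, 2330 and 2378 CPM in N2 embryos, so that replicate 1 was high and replicates 2 and 3 were below the N2 libraries.

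The list of 14 DREAM and synMuv B repressors, which hold germline genes silent in the soma, held 1 gene that rose. This was lin-13, which encodes a zinc-finger protein, with 1026, 924 and 917 CPM in xnp-1 embryos, against 444, 630.2 and 487 CPM in N2 embryos (log2 change 0.88, SE 0.152, edgeR adjusted p = 0.0141). Its groups did not overlap, and the call was lost without xnp-1 replicates 1 or 3 or N2 replicates 1 or 3 (adjusted p up to 0.111, edgeR). lin-35, the retinoblastoma homologue, had 366, 226 and 233 CPM in xnp-1 embryos, against 206, 233 and 229 CPM in N2 embryos and was not called (log2 change 0.31, SE 0.2902, edgeR adjusted p = 0.74). None of 7 genes of histone H3.3 and its chaperones, 13 genes of H3K9 methylation and heterochromatin, 6 MES and H3K36 methylation genes or 35 DNA damage genes was called, with medians of 0.30, 0.26, 0.26 and 0.23. Without xnp-1 replicate 1 these medians were 0.12, -0.02, -0.01 and -0.03, against -0.02 over all genes in that fit. The H3.3 gene his-72 had 1155, 886 and 861 CPM in xnp-1 embryos, against 778, 866 and 921 CPM in N2 embryos (0.18, adjusted p = 0.789, edgeR).

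Single members of other families rose. abt-5, an ABC transporter gene, had 22.2, 14.3 and 15.2 CPM in xnp-1 embryos, against 3.16, 3.38 and 3.75 CPM in N2 embryos (log2 change 2.33, SE 0.3104, edgeR adjusted p = 0.00273). lbp-9, which encodes a fatty acid-binding protein, had 62.3, 62.3 and 61.4 CPM in xnp-1 embryos, against 30.5, 27.6 and 28.3 CPM in N2 embryos (log2 change 1.11, SE 0.182), and ifb-1, an intermediate filament gene of the epidermal attachments, had 654.6, 1041 and 996 CPM in xnp-1 embryos, against 497, 510.5 and 522 CPM in N2 embryos (log2 change 0.82, SE 0.177). In ifb-1 it was xnp-1 replicate 1 that was lowest of its group, and every xnp-1 library was above every N2 library. The autophagy conjugating enzyme gene atg-10 (log2 change 1.54, SE 0.326), the glucuronosyltransferase gene ugt-64 (log2 change 1.16, SE 0.207) and the chemoreceptor gene str-225 (log2 change 2.65, SE 0.394) rose as the only members of lists of 25, 178 and 497 tested genes to do so, which is 4%, 0.562% and 0.201% of them. Of 282 F-box genes, which encode substrate adaptors of ubiquitin ligases, 3 rose (fbxa-192, fbxa-114 and fbxa-206) and 3 fell (fbxa-127, fbxa-99 and fbxa-82), 1.06% each way, against 0.43% and 0.684% of all genes. fbxa-192 had 13.6, 11.9 and 10.2 CPM in xnp-1 embryos, against 2.97, 3.95 and 3.13 CPM in N2 embryos (log2 change 1.83, SE 0.205, adjusted p = 0.000806, edgeR). abt-5, str-225 and fbxa-192 kept their call under all 14 alternatives, while atg-10 lost it without any 1 of the 6 libraries, ifb-1 without xnp-1 replicates 2 or 3 or any N2 library (adjusted p up to 0.187, edgeR), and lbp-9, ugt-64 and atg-10 lost it without xnp-1 replicate 1 (adjusted p = 0.0507, 0.0754 and 0.183, edgeR).

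**Figure D3:**
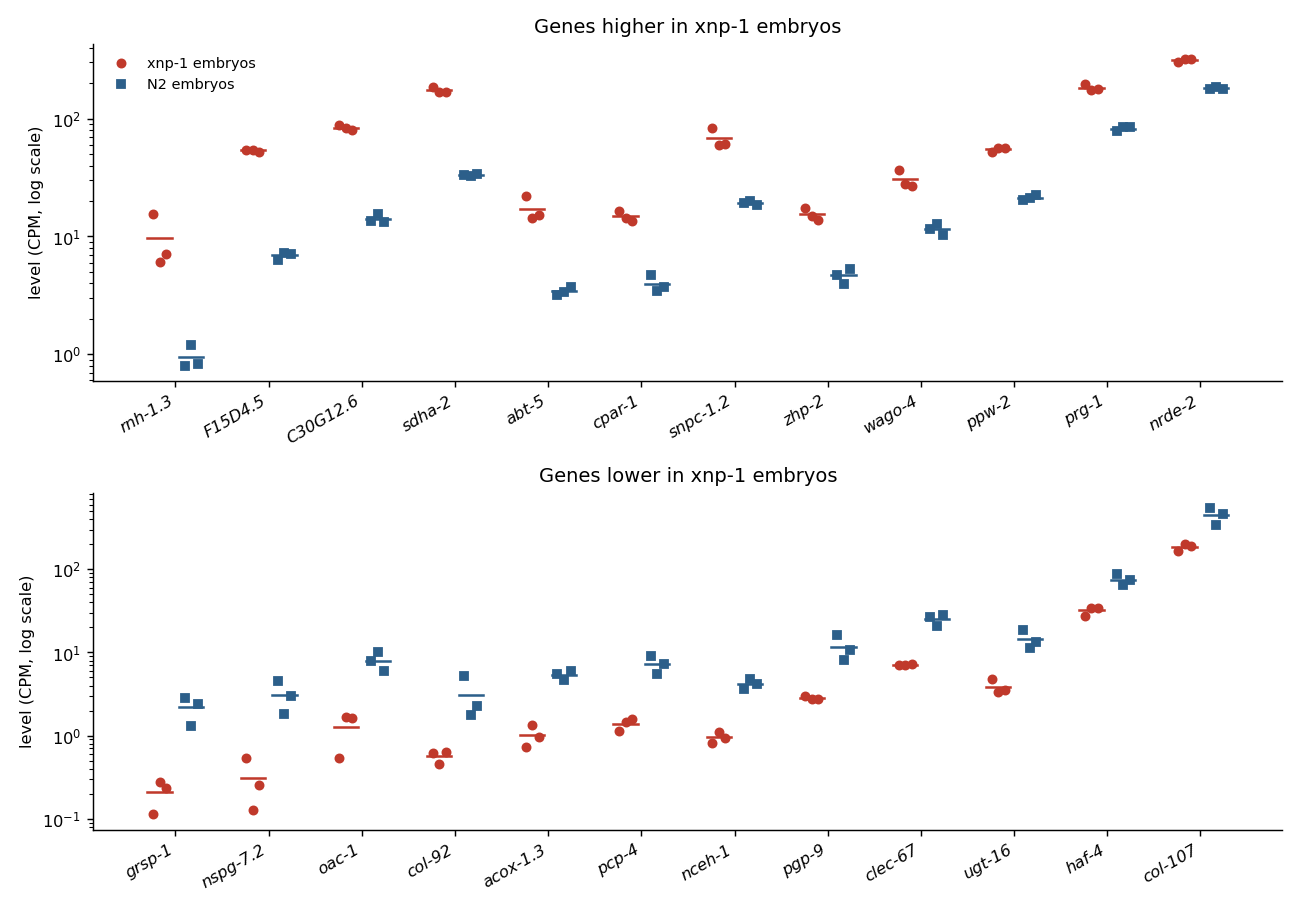
Levels (CPM, log scale) in each library of 12 genes that rose (top) and 12 that fell (bottom), with xnp-1 embryos as red circles to the left of N2 embryos as blue squares for each gene, and lines at the group means. The groups do not overlap for any of the 24 genes.

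WBGene00008966 (chromosome IV) fell. It had no count in any xnp-1 library, against 2.89, 3.32 and 4.69 CPM in N2 embryos, so it was at least 133.8-fold lower against a floor of 3 counts over the xnp-1 group (adjusted p = 4.53e-05, edgeR). Its call was kept under all 14 alternatives, and in L1 larvae it stood at 0.00761 CPM in xnp-1 and 1.95 CPM in N2 animals.

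Of 22 peroxisomal beta-oxidation genes, 2 fell (9.09%, against 0.684% of all genes) and none rose, with a median of -0.07. acox-1.3 and acox-1.4, which encode peroxisomal acyl-CoA oxidases of the enzyme family that shortens ascaroside pheromone side chains, lie side by side on chromosome I. acox-1.3 had 0.734, 1.32 and 0.952 CPM in xnp-1 embryos, against 5.45, 4.71 and 6.05 CPM in N2 embryos (log2 change -2.42, SE 0.347, edgeR adjusted p = 0.00446). acox-1.4 had 0, 0.0509 and 0.129 CPM in xnp-1 embryos, against 0.316, 0.537 and 0.521 CPM in N2 embryos (log2 change -2.82, SE 0.602, edgeR adjusted p = 0.0438). Neither overlapped between groups. The acox-1.4 values rest on few fragments, it is a close copy of its neighbours, and its call was lost under 7 of 14 alternatives, among them without xnp-1 replicate 1 (-2.31, adjusted p = 0.115, edgeR). daf-22, the thiolase of that pathway, had 83.5, 116 and 109 CPM in xnp-1 embryos, against 111, 123 and 146 CPM in N2 embryos and was not called (log2 change -0.30, SE 0.293, edgeR adjusted p = 0.742). None of 15 fatty acid desaturase and elongase genes was called (median 0.08). nceh-1, a homologue of neutral cholesterol ester hydrolase, had 0.819, 1.12 and 0.926 CPM in xnp-1 embryos, against 3.65, 4.74 and 4.204 CPM in N2 embryos (log2 change -2.13, SE 0.278, edgeR adjusted p = 0.00243).

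Of 42 ABC transporter genes, 4 fell (9.52%, against 0.684% of all genes) and 1, abt-5, rose (2.38%, against 0.43%). The P-glycoprotein gene pgp-9 had 3.02, 2.78 and 2.75 CPM in xnp-1 embryos, against 16.1, 8.12 and 10.7 CPM in N2 embryos (log2 change -2.03, SE 0.238, edgeR adjusted p = 0.00113), with the xnp-1 libraries close together and below every N2 library. haf-4, a half-transporter of the gut granules, had 27.1, 34.5 and 34.7 CPM in xnp-1 embryos, against 86.8, 64.5 and 74.1 CPM in N2 embryos (log2 change -1.23, SE 0.214), and the peroxisomal transporter gene pmp-4 had 11.6, 12.5 and 12.7 CPM in xnp-1 embryos, against 27.8, 20.3 and 21.8 CPM in N2 embryos (log2 change -0.93, SE 0.166). pgp-3, a P-glycoprotein gene of the intestine list, had 9.68, 6.24 and 7.41 CPM in xnp-1 embryos, against 18.6, 15.6 and 16.99 CPM in N2 embryos (log2 change -1.13, SE 0.217). In pgp-3 the xnp-1 libraries stayed below the lowest N2 library. pgp-9 kept its call under all 14 alternatives, and pgp-3, haf-4 and pmp-4 each lost theirs under 5 (adjusted p up to 0.219, 0.103 and 0.156, edgeR). haf-4 and pmp-4 lost it without xnp-1 replicate 1 (adjusted p = 0.0822 and 0.0557, edgeR) and pgp-3 without replicates 2 or 3.

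Detoxification genes of the cytochrome P450, glucuronosyltransferase and glutathione transferase families fell in 4 of 178 tested cases (2.25%, against 0.684% of all genes) and rose in 1 (0.562%, against 0.43%), with a median of -0.35. ugt-16 had 4.74, 3.31 and 3.55 CPM in xnp-1 embryos, against 18.7, 11.4 and 13.3 CPM in N2 embryos (log2 change -1.91, SE 0.342, edgeR adjusted p = 0.0172), and its neighbour ugt-18 had 3.05, 2.44 and 2.16 CPM in xnp-1 embryos, against 10.2, 7.55 and 6.32 CPM in N2 embryos (log2 change -1.66, SE 0.316). N2 replicate 1 was the highest library for both. cyp-33C5 had 1.67, 1.86 and 1.596 CPM in xnp-1 embryos, against 5.28, 4.36 and 4.07 CPM in N2 embryos (log2 change -1.42, SE 0.235), and gst-15 had 2.77, 1.94 and 2.65 CPM in xnp-1 embryos, against 10.9, 8.405 and 5.56 CPM in N2 embryos (log2 change -1.76, SE 0.376). Without xnp-1 replicate 1 only cyp-33C5 remained called, and its call was lost without xnp-1 replicates 2 or 3 or N2 replicate 1 (adjusted p up to 0.0877, edgeR).

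Few protease, lectin and infection response genes were called. asp-8, which encodes an aspartyl protease, had 0.113, 0.0764 and 0.103 CPM in xnp-1 embryos, against 1.897, 0.822 and 1.08 CPM in N2 embryos (log2 change -3.67, SE 0.438, edgeR adjusted p = 0.00118). It was the only one of 25 lysosomal and secreted protease genes to be called (4%, against 0.684% of all genes), in a list with a median of -0.53. pcp-4, a prolyl carboxypeptidase-like gene, had 1.13, 1.45 and 1.596 CPM in xnp-1 embryos, against 9.07, 5.498 and 7.26 CPM in N2 embryos (log2 change -2.38, SE 0.349). Of 145 C-type lectin genes, whose products bind sugars, 4 fell (2.76%, against 0.684% of all genes). clec-67 had 7.12, 7.104 and 7.26 CPM in xnp-1 embryos, against 26.5, 20.9 and 28.1 CPM in N2 embryos (log2 change -1.81, SE 0.158, edgeR adjusted p = 7.07e-05), with the xnp-1 libraries close together and far below the N2 libraries. clec-50 had 5.67, 6.26 and 6.25 CPM in xnp-1 embryos, against 26.5, 17.03 and 26.6 CPM in N2 embryos (log2 change -1.95, SE 0.361). clec-76 (log2 change -2.20, SE 0.412) and clec-265 (log2 change -1.23, SE 0.262) also fell, and of the 4 only clec-67 stayed called without xnp-1 replicate 1. The infection response genes irg-3 (log2 change -1.94, SE 0.354) and irg-1 (log2 change -1.22, SE 0.2597) fell among 42 lysozyme, saposin-like and infection response genes (4.76%, against 0.684% of all genes) with a median of -0.45, and both calls were lost without that library (adjusted p = 0.0934 and 0.159, edgeR).

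nspg-7.2, grsp-1 and nlp-25 fell at low levels. nspg-7.2 had 0.536, 0.127 and 0.257 CPM in xnp-1 embryos, against 4.52, 1.83 and 2.99 CPM in N2 embryos (log2 change -3.36, SE 0.4398, edgeR adjusted p = 0.00243). grsp-1, a gene of glycine-rich secreted proteins, had 0.113, 0.2801 and 0.232 CPM in xnp-1 embryos, against 2.85, 1.29 and 2.397 CPM in N2 embryos (log2 change -3.36, SE 0.461, edgeR adjusted p = 0.00341). Next to it lies nlp-25, a neuropeptide-like gene, with 0.0282, 0 and 0.0257 CPM in xnp-1 embryos, against 0.486, 0.221 and 0.208 CPM in N2 embryos (edgeR adjusted p = 0.0183). It had 2 fragments over the 3 xnp-1 libraries against 33 in N2, which is 18.4-fold lower with a 95% exact binomial interval of 4.72 to 159 that covers counting error only. The libraries of the 2 groups did not overlap for any of the 3 genes. nspg-7.2 and grsp-1 kept their call under all 14 alternatives, and nlp-25 lost it under 4 of the 11 that tested it, without any 1 of the xnp-1 libraries and without N2 replicate 1 (adjusted p up to 0.116, edgeR). nlp-25 was the only one of 125 neuropeptide genes to be called (0.8%, against 0.684% of all genes), and 13 of the 125 had a log2 change above 0 (median -0.44).

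Of 147 collagen genes, which build the cuticle, 2 fell (1.36%, against 0.684% of all genes) and none rose (median -0.37). col-107 had 167, 202 and 193 CPM in xnp-1 embryos, against 546, 338 and 468 CPM in N2 embryos (log2 change -1.26, SE 0.237, edgeR adjusted p = 0.0218), and col-92 had 0.621, 0.458 and 0.643 CPM in xnp-1 embryos, against 5.18, 1.77 and 2.29 CPM in N2 embryos (log2 change -2.43, SE 0.454). The groups did not overlap for either, and both calls were lost without xnp-1 replicate 1 (adjusted p = 0.116 and 0.11, edgeR). The whole list summed to 12440, 19380 and 18860 CPM in xnp-1 embryos, against 20900, 19370 and 22040 CPM in N2 embryos, with xnp-1 replicate 1 the lowest. None of 34 cuticlin, 25 moulting or 77 hedgehog-related and patched-related genes was called. ram-2, a gene known from the shape of male tail rays, had 180.1, 215 and 205 CPM in xnp-1 embryos, against 531, 370.1 and 452 CPM in N2 embryos (log2 change -1.17, SE 0.247), and crml-1, the homologue of the actin regulator CARMIL, had 59.6, 103.8 and 98.2 CPM in xnp-1 embryos, against 224, 266 and 229 CPM in N2 embryos (log2 change -1.46, SE 0.191). crml-1 was called under all 14 alternatives, and ram-2 lost its call under 6. In crml-1 it was xnp-1 replicate 1 that was lowest.

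Of 48 O-acyltransferase genes 3 fell (6.25%, against 0.684% of all genes), oac-1 (log2 change -2.63, SE 0.517), oac-20 (log2 change -1.99, SE 0.4204) and oac-6 (log2 change -1.29, SE 0.262), and all 3 calls depended on the libraries used. oac-1 and oac-6 lost theirs without xnp-1 replicate 1, and oac-20 lost it under 6 of 14 alternatives, among them without xnp-1 replicates 2 or 3 and N2 replicates 1 or 3 (adjusted p up to 0.282, edgeR). oac-1 had 0.536, 1.68 and 1.62 CPM in xnp-1 embryos, against 7.86, 10.02 and 6.05 CPM in N2 embryos. Its xnp-1 replicate 1 was lowest, and the groups were apart. Of 235 nuclear hormone receptor genes 3 fell, nhr-290 (log2 change -2.09, SE 0.408), nhr-110 (log2 change -1.81, SE 0.341) and nhr-226 (log2 change -1.13, SE 0.2301), or 1.28% against 0.684% of all genes, all below 3 CPM in every library and all lost without xnp-1 replicate 1. Y48G9A.11 (log2 change -2.87, SE 0.4495), F10A3.4 (log2 change -2.14, SE 0.3196), Y43F8B.1 (log2 change -1.41, SE 0.216), C14B4.2 (log2 change -1.21, SE 0.229), F53E10.1 (log2 change -1.0, SE 0.145), pcp-3 (log2 change -1.26, SE 0.266) and the transthyretin-like gene ttr-17 (log2 change -0.91, SE 0.198) fell as well. Of these, pcp-3 and ttr-17 lost their call without xnp-1 replicate 1 (adjusted p = 0.135 and 0.159, edgeR), and each of the other 5 lost it under 1 to 4 alternatives.

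Cell identity was read from lists of fate regulators and tissue genes. None of 10 endoderm and mesendoderm regulators and none of 25 other fate regulators was called, with medians of 0.13 and 0.12. The endoderm gene end-1 had 9.74, 5.32 and 6.85 CPM in xnp-1 embryos, against 6.49, 6.13 and 6.25 CPM in N2 embryos, and the epidermal regulator elt-1 had 142, 92.4 and 89.3 CPM in xnp-1 embryos, against 89.8, 94.3 and 106.6 CPM in N2 embryos. xnp-1 replicate 1 was the highest library for both, and the other xnp-1 libraries lay at or near the N2 levels. None of 37 early zygotic genes was called either (median 0.37).

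Genes of differentiated tissues had medians below 0 in most lists, again with few called. None of 15 pharynx genes was called, yet 11 of 15 log2 changes were below 0 and their median, -0.63, was the lowest of the 46 lists described. The pharynx list summed to 856.3, 1128 and 1107 CPM in xnp-1 embryos, against 1894, 1443 and 1596 CPM in N2 embryos. None of 23 body wall muscle genes was called (median -0.24), and they summed to 10740, 15240 and 14810 CPM in xnp-1 embryos, against 17900, 16740 and 16660 CPM in N2 embryos. The sums of both lists were lower in every xnp-1 library than in any N2 library, with xnp-1 replicate 1 the lowest. Intestine genes (1 of 20 fell, pgp-3, or 5% against 0.684% of all genes, median -0.41) summed to 1618, 2059 and 2003 CPM in xnp-1 embryos, against 2960, 2491 and 2657 CPM in N2 embryos, and did not overlap either. Neurotransmitter identity genes (none of 18 called, median -0.46) did not overlap, at 263.5 to 376.5 CPM in xnp-1 and 379.4 to 453.6 CPM in N2 embryos. Pan-neuronal genes (none of 24 called, median -0.18) summed to 4369, 5704 and 5658 CPM in xnp-1 embryos and 5423, 5762 and 5267 CPM in N2 embryos, which overlapped.

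Not every tissue followed that order. Of 30 cilia genes none was called, the median was 0.05 and xnp-1 replicates 2 and 3, at 970.7 and 975.5 CPM, were above all N2 libraries while replicate 1, at 626.7 CPM, was below them. Ribosomal protein genes had a median of 0.00 over 82 genes with none called. Without xnp-1 replicate 1 the medians were -0.53 for pharynx, -0.12 for body wall muscle, -0.34 for intestine, -0.36 for neurotransmitter identity and 0.22 for cilia, against -0.02 over all genes in that fit. With the marker score as a covariate they were -0.60, -0.22, -0.40, -0.44 and 0.09, against 0.01 over all genes. Differences in embryonic age that the marker score does not capture were not tested.

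**Figure D4:**
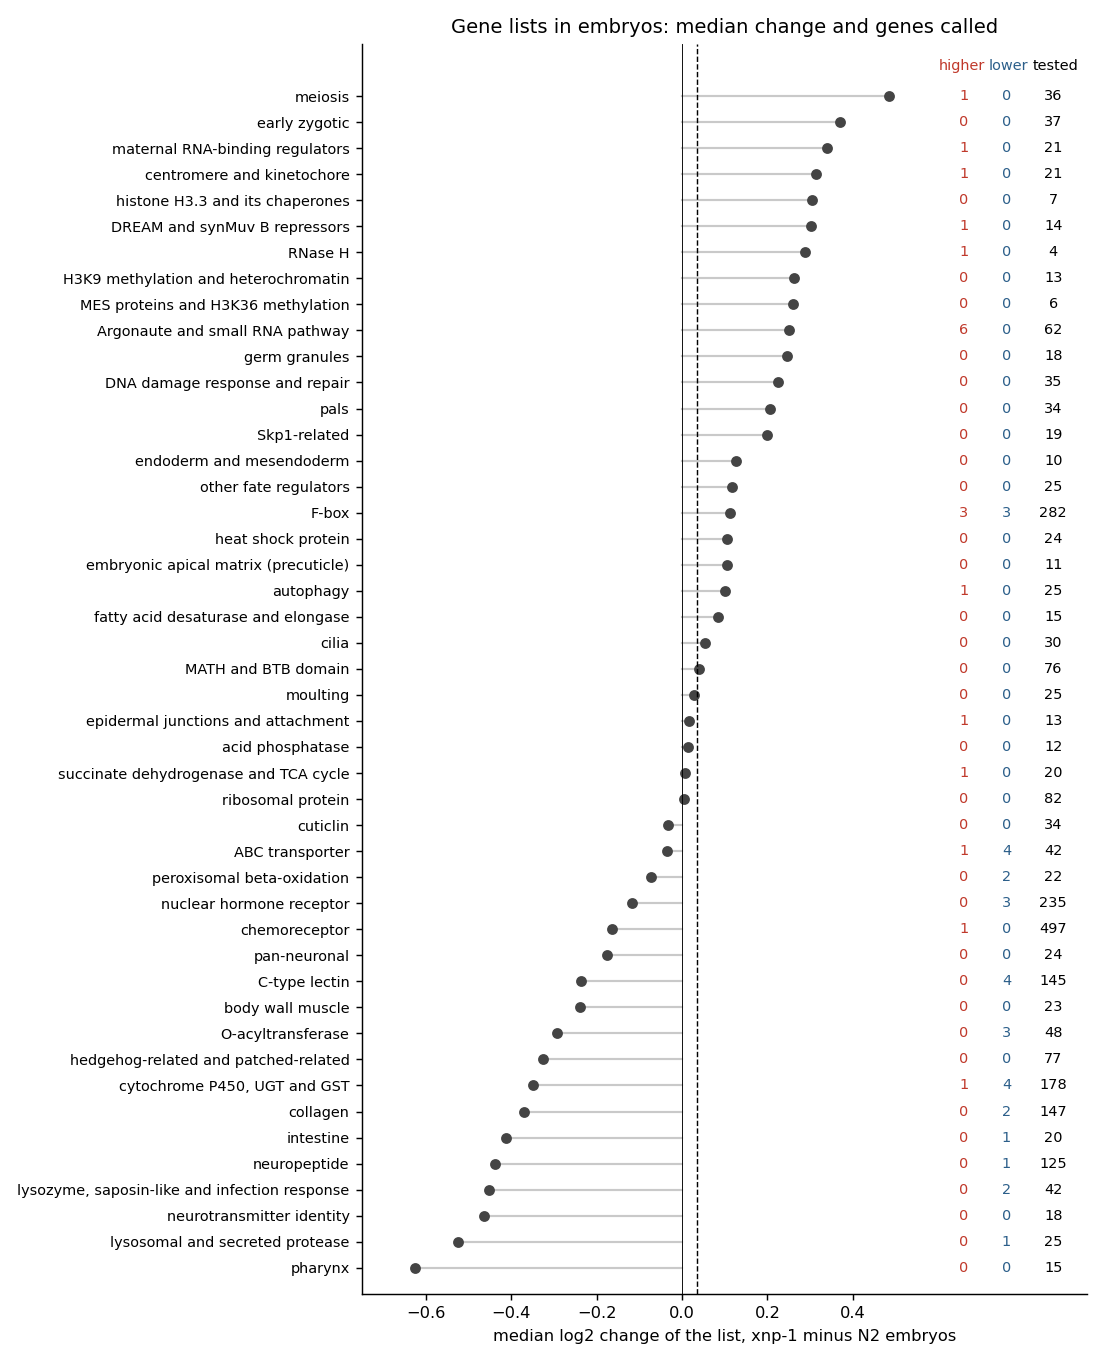
Median log2 change, xnp-1 minus N2 embryos, of each gene list (points), with the median of all genes tested as a dashed line at 0.03. Columns at the right give how many members rose, fell and were tested; the highest median is that of meiosis (0.49) and the lowest that of pharynx (-0.63).

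The genes that changed were spread over all 5 autosomes and were few on the X chromosome. On X, 6 of 2589 tested genes were called (0.232%), against 1.02% to 1.62% on the autosomes. Chromosome V held 49 of the 121 genes that fell (40.5%) and 22.3% of the genes tested, and 15 of the 76 that rose. Chromosomes I and II held 18 and 19 of the genes that rose (23.7% and 25%), and 15.2% and 17.5% of the genes tested. Of the autosomal genes that fell, 96 of 117 (82.1%) ended outside the middle of their chromosome, taken as 33.3% to 66.7% of its length up to the last gene, against 48 of 74 (64.9%) of those that rose and 60% of all autosomal genes tested. Without xnp-1 replicate 1, chromosome V held 16 of 37 genes that fell (43.2%).

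Called genes often lay next to each other. Among tested genes in order along the chromosome, 28 of 76 genes that rose (36.8%) were next to another that rose, a position held by 0.842% of all tested genes. Of the genes that fell, 24 of 121 (19.8%) were next to another that fell, against 1.33%. The genes that rose formed 13 such runs and those that fell 11, none longer than 3 genes. The runs of 3 were C48B4.9, C48B4.10 and C48B4.11 (chromosome III, 9562331 to 9566115) and Y102A5C.36, WBGene00014954 and WBGene00014955 (chromosome V, 16926922 to 16930063) among those that rose, and ZK896.1, ZK896.5 and ZK896.4 (chromosome IV, 12872776 to 12883290) and Y43F8B.1, Y43F8B.20 and oac-1 (chromosome V, 19534876 to 19555969) among those that fell. Pairs included C30G12.6 with puf-8, nrde-2 with mrps-14 and lin-13 with C03B8.3 among those that rose, and acox-1.3 with acox-1.4 and ugt-16 with ugt-18 among those that fell. Of the runs, 8 of 13 and 9 of 11 lay on 1 strand, and neighbours on 1 strand can share a transcript in the worm's operons, so the genes of a run may not be independent measurements. Without xnp-1 replicate 1, 9 of 50 genes that rose and 2 of 37 that fell had such a neighbour. The share over all tested genes was not taken in that fit.

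Larvae gave a comparison in other libraries. In L1 larvae 64 genes were higher in xnp-1 than in N2 animals (0.362% of those tested) and 21 lower (0.119%). Of the 76 genes that rose in embryos, 49 rose in L1 larvae, which is 64.5% of the embryo list and 76.6% of the L1 list, none fell, and all 76 log2 changes were above 0 (median 1.36). Of the 121 that fell in embryos, 12 fell in L1 larvae, 9.92% of the embryo list and 57.1% of the L1 list, and 2 of 121 log2 changes were above 0 (median -0.72). The embryo contrast chose the genes, in a fit that took its count filter and spread from the L1 libraries too, so these values are given as a description. A fit of only the 6 embryo libraries called 193 of the 197. sdha-2 stood at 110.2 ± 12.5 CPM in xnp-1 and 18.9 ± 4.87 CPM in N2 animals in L1 larvae (log2 change 2.55), C30G12.6 at 111.7 ± 13.8 CPM in xnp-1 and 15.6 ± 0.371 CPM in N2 animals (2.84) and prg-1 at 193 ± 21.2 CPM in xnp-1 and 48.6 ± 10.1 CPM in N2 animals (1.99), all 3 called. asp-8 stood at 4.601 ± 1.24 CPM in xnp-1 and 12.55 ± 2.33 CPM in N2 animals (-1.45, adjusted p = 0.0674, edgeR) and pgp-9 at 22.4 ± 2.08 CPM in xnp-1 and 37.2 ± 3.895 CPM in N2 animals (-0.73, adjusted p = 0.332, edgeR), and neither was called. The test of the difference between the embryo and L1 changes itself called 0 of 17687 genes in edgeR, where 454 had a p under 0.05 before adjustment, and 9 in DESeq2, so no change here is called particular to embryos.

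L4 larvae were grown at 25 °C and sequenced at another centre, and their table was fitted apart. There the xnp-1 transcript stood at 46.01 CPM in xnp-1 and 75.5 CPM in N2 animals (log2 change -0.71, adjusted p = 0.0131, edgeR). At L4, 4071 of 17492 tested genes were higher in xnp-1 than in N2 animals (23.3%) and 4421 lower (25.3%). Of the genes that rose in embryos, 61 of 73 tested rose at L4 (83.6%) and 2 fell. Of those that fell in embryos, 58 of 116 tested fell at L4 (50%) and 7 rose. The genes that rose had a median log2 change of 1.44 at L4, and those that fell had -0.75. cpar-1 had a log2 change of 3.60 and F15D4.5 of 3.13, while abt-5, which rose in embryos and L1 larvae, was at -1.36 (adjusted p = 0.025, edgeR). Among the genes that fell, oac-1 was at -4.49, and acox-1.3, at 0.43, was not called (adjusted p = 0.145, edgeR).

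**Figure D5:**
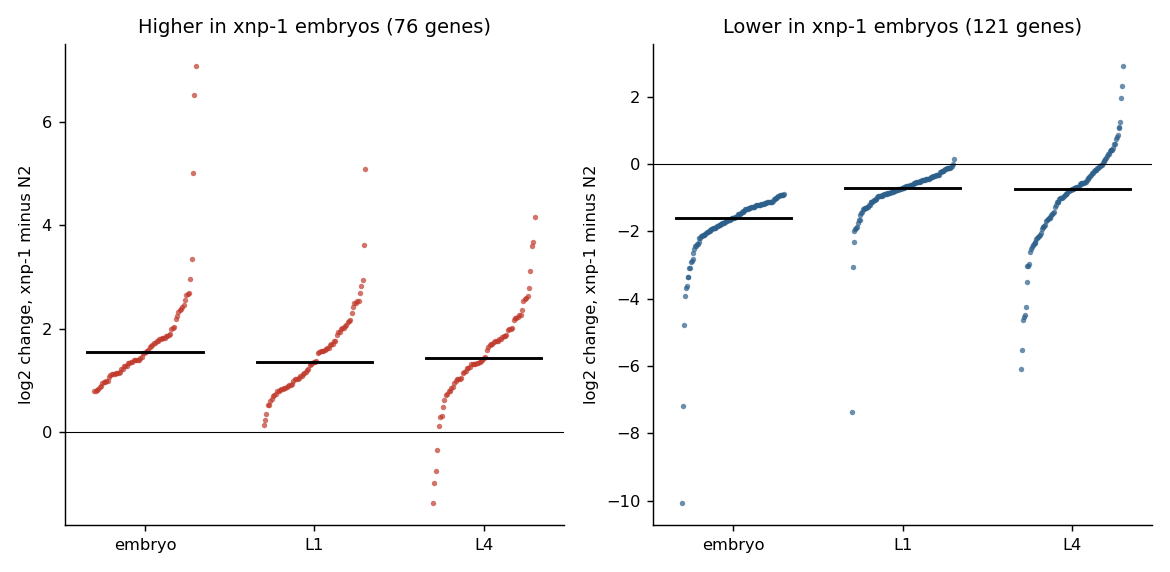
Log2 change, xnp-1 minus N2, in embryos, L1 and L4 larvae of the 76 genes that rose in embryos (left) and the 121 that fell (right). Points are genes sorted within each stage and black lines are medians, which are 1.55, 1.36 and 1.44 on the left and -1.61, -0.72 and -0.75 on the right; the embryo contrast chose the genes, and genes with no count in 1 group stand at fitted values.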

How the data were processed

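Poly(A) RNA of whole xnp-1 and N2 embryos was measured in 3 libraries each, labelled as biological replicates. The labels do not say how cultures were kept apart, so p-values measure the spread between these samples. The deposited table holds raw counts per gene, not normalized by the authors. The counts came from featureCounts 2.0.1, per the file headers, which counted fragments on the WS280 gene set with strand and a minimum mapping quality of 10. FastQC, Trim Galore, STAR and SAMtools were used before that, per the submitters' processing notes. Their versions are not given in the sources used here. The L4 table came from featureCounts 2.0.6. Coordinates are those of the deposited table.

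The 46926 gene identifiers were named from a name table, in which 44114 matched, and 375 were given a newer symbol by RefSeq locus tag. A table of 12 columns named for 22G-RNAs was not used here.

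edgeR 4.0.16 in R 4.3.3 (filterByExpr, TMM, robust quasi-likelihood F test, two-sided) was fitted to all 12 embryo and L1 libraries in 4 groups, after a test on simulated data. That simulation gave all genes the same spread. It held no library that stood apart as xnp-1 replicate 1 does here, so such a case was not tested. Genes were called where the p, adjusted by Benjamini-Hochberg over the 17687 genes tested, was under 0.05. Every adjusted p is from edgeR unless another tool is named. A group with no count was set to a floor of 3 counts, which covers counting error only. The total depth of 29896459 to 41520291 fragments per embryo library limits the precision of genes with few counts. The alternatives were DESeq2 1.42.0, RLE scaling, other count filters, the embryo libraries alone, a replicate block, a marker score and leaving out each embryo library. The list, chromosome and neighbour counts without xnp-1 replicate 1, and the list counts and medians with the marker score, were chosen after seeing the data.

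The members, the naming rule and 49 gene lists were chosen with earlier results of these data known. The rule took called genes whose groups did not overlap and whose higher group averaged at least 2 CPM, per direction the 15 with the largest log2 change and the 10 with the highest CPM. It added up to 4 called members of each list with the smallest p, xnp-1 and gsox-1. Genes outside it (B0041.11, tofu-4, gst-15, fbxa-114, fbxa-206, list members not called and genes near called genes) were named after their values were seen.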

Additional observations from a re-analysis of the deposited data

How the results depend on the processing

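The xnp-1 transcript kept its direction and its call under all 14 alternatives, with a log2 change from -1.64 to -1.55 when an embryo library was left out. The count of called genes (197, with 76 higher and 121 lower) moved more. It was 591 with DESeq2 (179 higher, 412 lower) and 580 with only the 6 embryo libraries (129 higher, 451 lower), of which 195 and 193 were among the 197. Leaving out 1 embryo library gave 53 to 157 genes, with 31 to 55 higher and 22 to 102 lower. The count was 87, 78 and 83 without xnp-1 replicates 1, 2 and 3, and 53, 157 and 90 without N2 replicates 1, 2 and 3; these fits have fewer samples. RLE scaling gave 185 (79 higher, 106 lower) and moved the median of all genes to 0.07. No filter gave 250, a stricter filter 190, and the marker score 183. No gene among the 197 changed sign under any of these.

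Same-numbered xnp-1 and N2 embryos had correlations of 0.03, 0.08 and -0.06 between their deviations from the group means. The main fit does not treat the embryo numbers as pairs. Deviations from a mean of 3 libraries are tied to each other, so these correlations cannot settle whether the numbers mark pairs. In L1 larvae, replicate 1 had the lowest mean log2 level of apical matrix genes in both genotypes. It was 6.19 against 7.097 and 7.215 in xnp-1, and 5.445 against 7.051 and 7.032 in N2. The L1 libraries share the spread of the main fit, which has no replicate block, and pairing at L1 was not tested. With the replicate block in the fit of 12 libraries, 337 genes were called (90 higher, 247 lower), and with the replicate block and only the 6 embryo libraries 676 (139 higher, 537 lower). The xnp-1 log2 change was -1.61 in both. xnp-1 replicates 1 and 3 correlated best with an N2 library of another number.

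The test of a difference between embryos and L1 larvae called 0 genes with edgeR in all alternatives that could be fitted to both stages and 9 with DESeq2. It could not be fitted to the embryo libraries alone. Of the 73 named genes called, 44 lost the call under at least 1 alternative, 41 of them without N2 replicate 1, and none reversed. At a few counts per library, genes such as nlp-25 and acox-1.4 are limited by depth.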
